A study of Mus musculus with 9 samples.

Results

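Receptors for extracellular nucleotides and adenosine were examined in RAW264.7 cells, a mouse macrophage line whose tissue label is ascites. The 8 genes were taken by symbol from a table of 54532 genes, and they are Adora2a, Adora2b, P2rx4, P2rx7, P2ry2, P2ry6, P2ry14 and Entpd1. Libraries came from 3 groups of 3, all of the label genotype WT. One group was untreated (control), another received LPS at 1 μg/ml for 6 h, and the last received the same LPS together with G-CDs at 400 μg/ml for 6 h. LPS, lipopolysaccharide, is a bacterial surface molecule that activates macrophages, and G-CDs are carbon dots made from Glycyrrhiza. The last group carries G-CDs in its sample titles, while its treatment label names LPS alone. No group given G-CDs without LPS was analysed here, and the results concern a single cell line. Neither the labels nor the methods say whether the libraries of a group came from separate cultures, so p-values measure only the spread between these libraries.

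Cells release ATP, ADP, UTP, UDP and UDP-sugars when they are stressed, activated or damaged. P2X receptors are cation channels opened by ATP, and P2Y receptors are G protein-coupled receptors for nucleotides. Ectonucleotidases, among them CD39, the product of Entpd1, break ATP down toward AMP, from which CD73 makes adenosine. The adenosine A2a and A2b receptors couple to Gs and raise cAMP, and in macrophages adenosine signaling is known to restrain inflammatory cytokine release. The channel encoded by P2rx7 is known in macrophages as a trigger of the NLRP3 inflammasome.

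Each library held 14752400 to 17312255 reads assigned to genes. The deposited unit is FPKM, reads per gene scaled to gene length and library size, and the reads behind it were recovered from the values. All 6 macrophage markers were detected in every group, with a summed level of 2105 to 2958 FPKM in control, 1483 to 1545 in LPS and 1146 to 1676 in LPS + G-CDs libraries. Most of this sum was Lyz2 and Csf1r, which fell with LPS by 0.88 and 1.16 on the log2 scale (limma adjusted p = 0.0241 and 0.000213), whereas Adgre1, Ptprc and Itgam rose by 1.503, 0.97 and 0.53 (adjusted p = 7.2e-05, 0.00817 and 0.0481). The part of these marker changes in the results was not tested. Of 20 markers of T cells, B cells, erythroid cells, fibroblasts, endothelium and epithelium, 0 passed the filter on low values, 9 had 0 reads in all 9 libraries, and the highest single value was 0.497 FPKM. Within groups, libraries differed by gene length. With the tested genes split into 3 equal classes of length, the median deviation from the group mean was -0.248, -0.021 and 0.271 on the log2 scale for the shortest class in LPS + G-CDs replicates 1, 2 and 3, and for the longest it was 0.197, -0.003 and -0.199. Control replicate 3 stood at 0.167 for the shortest and -0.162 for the longest class, against -0.061 and -0.069 (shortest) and 0.085 and 0.095 (longest) in control replicates 1 and 2. The LPS libraries stayed between -0.021 and 0.018. Values with the length trend taken out are given beside the receptors whose calls they change. In bulk RNA, fewer cells expressing a gene and less of its RNA per cell cannot be told apart.

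The promoters of the receptors that changed most, and of a neighboring pair that moved in opposite directions with LPS, are printed here from RefSeq on GRCm38.p6, 5′ to 3′ on the strand of the gene and ending at the annotated start. Capitals mark matches to the motifs described after them. For P2rx7 the last 16 bases were left out because GENCODE places them in an exon. For P2ry2 the RefSeq start lies inside the gene span given further below, so its window falls within that span.
Adora2b, chr11:62248734-62248983, plus strand: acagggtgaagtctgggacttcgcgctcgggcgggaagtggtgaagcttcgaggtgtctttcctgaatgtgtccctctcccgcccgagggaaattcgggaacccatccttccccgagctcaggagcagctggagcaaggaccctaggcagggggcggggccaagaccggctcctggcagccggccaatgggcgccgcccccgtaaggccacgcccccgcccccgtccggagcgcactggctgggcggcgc
P2ry2, chr7:101012054-101012303, minus strand: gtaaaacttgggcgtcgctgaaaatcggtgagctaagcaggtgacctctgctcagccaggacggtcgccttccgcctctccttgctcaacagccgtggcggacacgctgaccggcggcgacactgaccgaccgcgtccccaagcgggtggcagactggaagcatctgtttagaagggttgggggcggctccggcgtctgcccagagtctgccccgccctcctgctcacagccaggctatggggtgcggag
P2rx4, chr5:122707294-122707543, plus strand: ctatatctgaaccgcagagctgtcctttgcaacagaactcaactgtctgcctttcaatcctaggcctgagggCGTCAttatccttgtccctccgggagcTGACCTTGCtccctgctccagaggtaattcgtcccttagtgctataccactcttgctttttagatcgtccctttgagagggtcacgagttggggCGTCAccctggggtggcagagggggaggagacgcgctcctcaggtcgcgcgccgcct
P2rx7, chr5:122643677-122643910, plus strand: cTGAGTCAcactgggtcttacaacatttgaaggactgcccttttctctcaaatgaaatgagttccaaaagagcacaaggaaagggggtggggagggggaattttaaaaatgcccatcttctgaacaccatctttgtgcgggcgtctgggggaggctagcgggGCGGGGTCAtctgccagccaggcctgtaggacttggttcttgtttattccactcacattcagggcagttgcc

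The 250 bases before the start were searched on both strands for the NF-κB motif, for the short core of the cAMP response element (TGACG), for AP-1 (TGANTCA), for the core of the interferon-stimulated response element and for the core of the antioxidant response element (TGACNNNGC). The short core can overlap the antioxidant core. Of the 8 genes, 6 matched the RefSeq table by symbol, in 12 windows, and Adora2a and P2ry6 were not among them. The windows of Adora2b and P2ry2 held no match to any of these letters. The P2rx4 window held the cAMP core 178 and 57 bases before the start and the antioxidant core at 151. The P2rx7 window printed here held AP-1 at its upstream end and the antioxidant core at 88, and the second P2rx7 window held no match. Of the windows not printed, 2 of the 4 of P2ry14 held AP-1, at 202 and 144 bases before the start, and both of Entpd1 held the cAMP core, at 135 and 183. Among all 32851 windows, 7.25% held NF-κB, 17.8% the cAMP core, 6.75% AP-1, 2.98% the interferon core and 10.2% the antioxidant core. The upstream bases of Adora2b and P2ry2 were 69.6% and 65.2% G or C, against a median of 52.4% over all windows, while those of P2rx4 and P2rx7 were at 57.2% and 53.6%.

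The receptors differed widely in level. In control cells the order by mean FPKM was P2ry6 (30.6), P2rx7 (5.18), Adora2b (3.30), P2ry2 (1.80), P2rx4 (1.22) and Entpd1 (0.203), with Adora2a and P2ry14 at 0. No neighbors in this order overlapped in their 3 libraries apart from the last pair. With LPS the order became P2ry6 (47.4), Adora2b (24.96), P2ry2 (7.74), P2rx7 (3.29), P2rx4 (2.05), Adora2a (0.534), Entpd1 (0.0432) and P2ry14 (0). P2rx7 thus stood above Adora2b and P2ry2 in control cells and below both with LPS. The length used for FPKM takes in the exons of all annotated transcripts, 9 for P2rx4 and 1 for Adora2b. Genes with many transcripts can therefore stand too low in these orders. The order with LPS + G-CDs was that with LPS, although the libraries of P2rx7 and P2rx4 overlapped there, as did those of Adora2a and Entpd1.

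**Figure D1:**
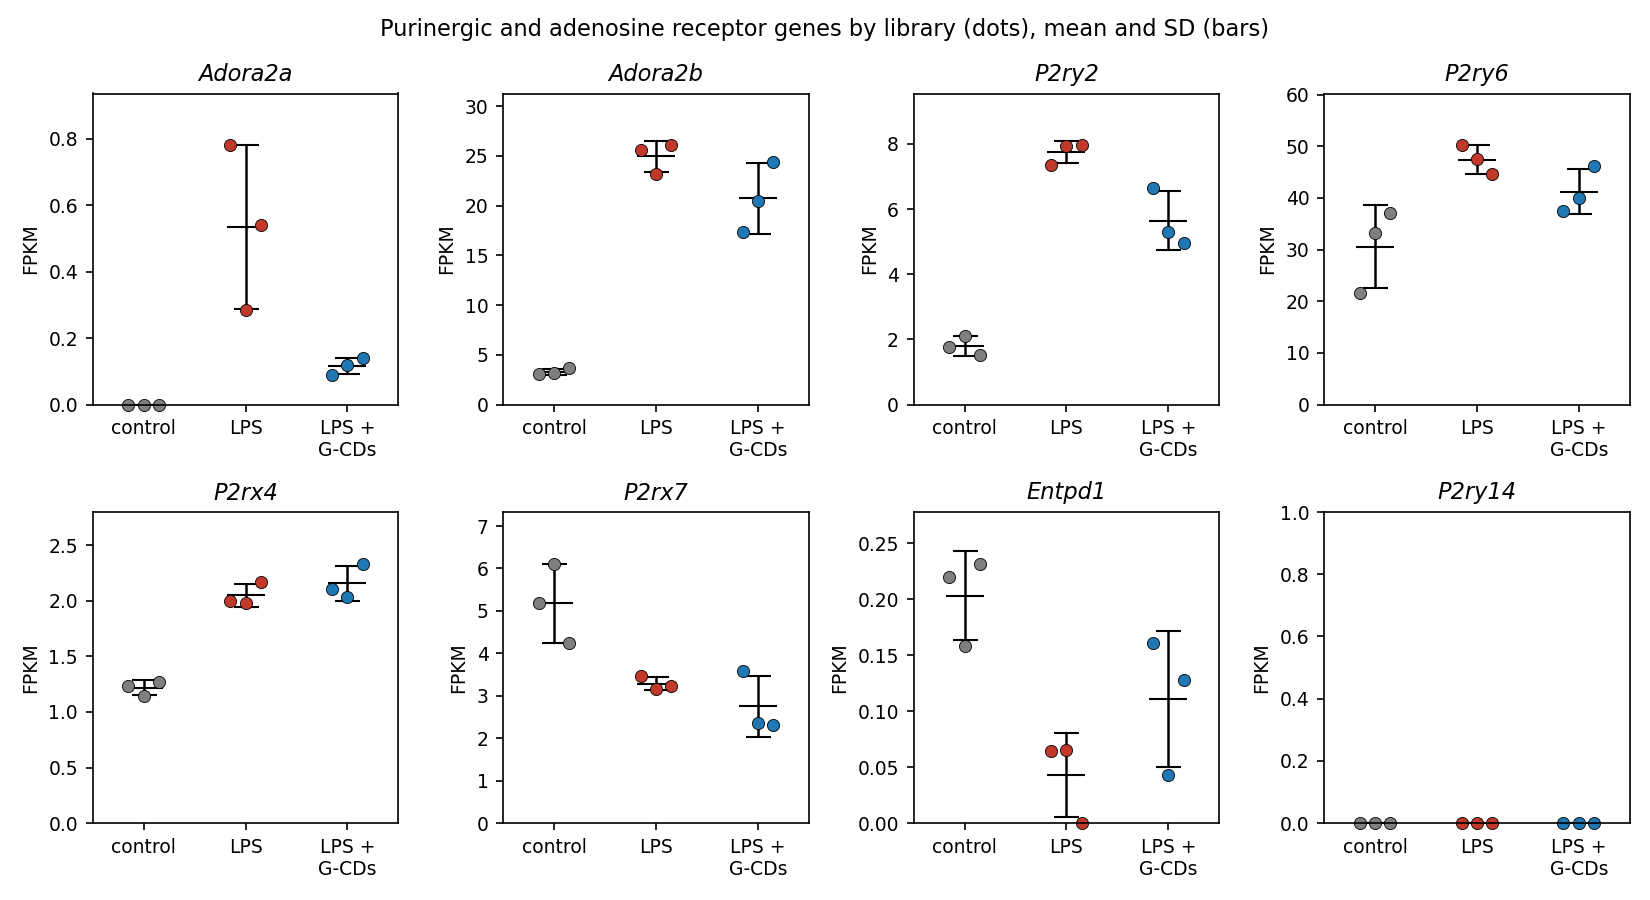
FPKM (vertical axes, linear and starting at 0, each panel with its own scale) of the 8 genes in the 9 libraries, with dots for libraries and bars for the mean and SD of each group. Adora2b is at 3.03 to 3.65 in control, 23.2 to 26.1 in LPS and 17.4 to 24.4 in LPS + G-CDs libraries, P2rx7 is highest in control libraries, and P2ry14 is at 0 in all 9.

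The comparison of LPS with control cells asks how an inflammatory stimulus changes these receptors. Each of the 5 genes that reached 1 FPKM did so in all 9 libraries, and these were tested on log2(FPKM + 1) in limma, with Benjamini-Hochberg adjustment over 11585 genes. All 5 passed an adjusted p of 0.05, against 31.3% of the genes tested. Adora2b, P2ry2, P2ry6 and P2rx4 rose and P2rx7 fell, and 15.8% and 15.6% of the tested genes did so. An unadjusted p under 0.05 was reached by 5 of 5 (41.9%), and p under 0.01 with over 1.5-fold on the FPKM + 1 scale by 3 (23.1%), which were Adora2b, P2ry2 and P2ry6. On that scale P2rx4 was at 1.37-fold, while its ratio of mean FPKM was 1.68. In all 5 the LPS libraries lay on one side of the control libraries (52.5% of the tested genes), 4 above (27.4%) and 1 below (25.1%). The median change of the 5 was 0.65 on the log2 scale, beside 0.02 over all genes tested.

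Adora2b encodes the A2b receptor, which has a low affinity for adenosine, and spans chromosome 11, 62248984 to 62266453, of GRCm38 (ENSMUSG00000018500). It was at 3.03, 3.22 and 3.65 FPKM in the control libraries and at 25.6, 23.2 and 26.1 in the LPS libraries. The groups were far apart, with a mean of 3.30 ± 0.318 in control and 24.96 ± 1.54 in LPS-treated cells (SD, n = 3), a ratio of 7.56. The log2 change was 2.59 (standard error 0.14, limma adjusted p = 1.73e-06). It is the largest change among the 5 genes.

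P2ry2, a receptor for ATP and UTP, lies on chromosome 7 from 100996568 to 101012866 (ENSMUSG00000032860). Control libraries were at 1.78, 2.11 and 1.52 FPKM and LPS libraries at 7.35, 7.93 and 7.95, with no overlap. The mean went from 1.80 ± 0.297 to 7.74 ± 0.341 FPKM (SD, n = 3), a ratio of 4.30 and a log2 change of 1.65 (standard error 0.13, limma adjusted p = 2.51e-05). The calls of Adora2b and P2ry2 held in all 21 alternative analyses.

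P2ry6, the receptor for UDP and the most abundant transcript of the 8, lies 21918 bases from P2ry2 on chromosome 7, from 100937630 to 100974649 (ENSMUSG00000048779). It was at 21.6, 33.1 and 37.0 FPKM in control and at 50.2, 47.4 and 44.7 in LPS libraries. Control replicate 1 was the lowest of the 9, and the control SD was 26.1% of the mean. The log2 change was 0.65 (standard error 0.19, limma adjusted p = 0.0308). It was 0.43 (adjusted p = 0.0406) without control replicate 1, and the adjusted p was 0.0691 to 0.102 without any 1 of the LPS libraries and 0.0535 without LPS + G-CDs replicate 2. The call was also lost with no filter (0.0597), with quantile scaling (0.0532) and in TPM, where the change was 0.39 (0.127).

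The P2X channel genes, which lie 16111 bases apart on chromosome 5, moved in opposite directions. P2rx4 (122707544 to 122729738, ENSMUSG00000029470), whose channel sits largely on lysosomes and the cell surface, was at 1.24, 1.145 and 1.27 FPKM in control and at 1.998, 1.98 and 2.16 in LPS libraries. Its log2 change was 0.46 (standard error 0.11, limma adjusted p = 0.0121), and the adjusted p was 0.0572 without LPS replicate 3 and 0.068 with the length trend taken out. P2rx7 (122643911 to 122691432, ENSMUSG00000029468) was at 5.19, 6.11 and 4.24 FPKM in control and at 3.47, 3.17 and 3.24 in LPS libraries. Each LPS library was below each control library. P2rx7 fell by 0.52 on the log2 scale (standard error 0.16, limma adjusted p = 0.0407). This call was the least stable of the 5 and held in 13 of 21 alternative analyses. The adjusted p was above 0.05 without control replicate 1 (0.085), control replicate 2 (0.122), LPS replicates 1, 2 or 3 (0.0904, 0.12 and 0.111) or LPS + G-CDs replicate 2 (0.0596).

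The other 3 genes stayed below 1 FPKM in every library and were outside the test, so they are given by their reads. Adora2a, the gene of the A2a receptor (chromosome 10, 75316877 to 75334784, ENSMUSG00000020178), had 0 reads in each control library and 33, 12 and 24 reads in the LPS libraries. That is 0.780, 0.284 and 0.539 FPKM, on average at least 9.73-fold higher than the 0.0549 FPKM that 3 reads per control library would give. In a fit with no filter on low values, which kept every gene with a read in any library, its log2 change was 0.60 (limma adjusted p = 0.0066). Adora2a entered that fit only through the groups given LPS, and its control values were all 0. This adjusted p therefore adds no support to the reads. Entpd1 (chromosome 19, 40612366 to 40741602, ENSMUSG00000048120) had 23, 15 and 23 reads in control and 5, 5 and 0 in LPS libraries. Its log2 change with no filter was -0.21 (limma adjusted p = 0.0293). The adjusted p was 0.0738 under a filter of more than 0.1 FPKM in 3 libraries, added after seeing the data, which Entpd1 passed only with its control libraries counted. P2ry14, a receptor for UDP-glucose (chromosome 3, 59113855 to 59153618, ENSMUSG00000036381), had 0 reads in all 9 libraries, and 3 reads would be 0.0145 to 0.0196 FPKM. This limit covers counting error only.

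**Figure D2:**
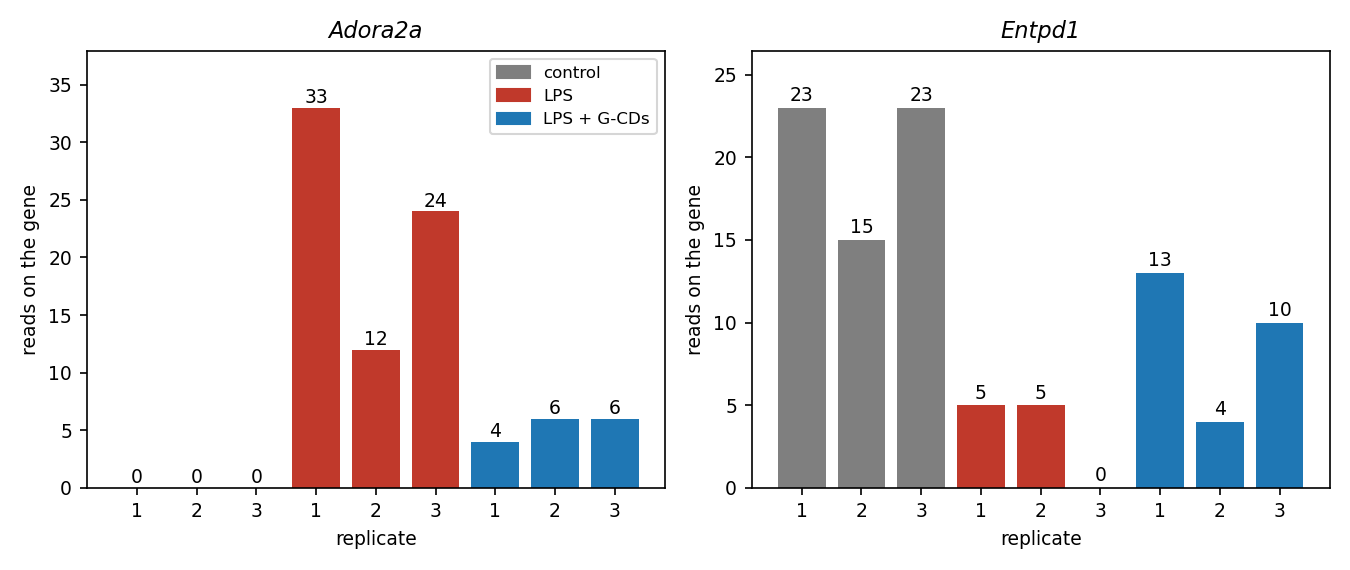
Reads (vertical axes, starting at 0) on Adora2a and Entpd1 in each of the 9 libraries, ordered by group and replicate number. Adora2a has 0 reads in the control libraries, 12 to 33 in the LPS libraries and 4 to 6 in the LPS + G-CDs libraries, whereas Entpd1 is highest in control libraries at 15 to 23.

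The comparison of LPS + G-CDs with LPS asks whether G-CDs alter this receptor pattern. Of the 5 tested genes, limma called 0 at an adjusted p under 0.05 (background 0.492%, with 0.25% of genes higher and 0.242% lower), and 0 met p under 0.01 with over 1.5-fold on the FPKM + 1 scale (2.49%). P2ry2 alone, 1 of 5, had an unadjusted p under 0.05, as had 15.2% of the genes tested. The log2 change was negative for 4 and positive for 1, with a median of -0.21 beside 0.02 over all genes tested. In 1 of the 5, P2ry2, the groups did not overlap and LPS + G-CDs was lower (27.9% of the genes tested in either direction, 12.9% higher and 15% lower).

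P2ry2 was at 6.66, 5.30 and 4.95 FPKM with LPS + G-CDs, all below the LPS libraries at 7.35 to 7.95. The mean was 5.64 ± 0.902 (SD, n = 3) and the log2 change -0.41 (95% interval -0.71 to -0.10, unadjusted p = 0.0145, limma adjusted p = 0.272). Over the alternatives the adjusted p ranged from 0.0588, without LPS + G-CDs replicate 1, to 0.648.

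Adora2b was at 17.4, 20.4 and 24.4 FPKM with LPS + G-CDs, and only the highest of these lay within the range of the LPS libraries. Its log2 change was -0.27 (95% interval -0.58 to 0.045, limma adjusted p = 0.339), and it was -0.15 without LPS + G-CDs replicate 1 and -0.44 in TPM. At 1845 bases it belongs to the shortest class of genes, and its LPS + G-CDs libraries stood in the order of the deviations of that class. Those of P2rx7 and P2ry6 also stood in the order of their classes, whereas those of P2rx4 and P2ry2 did not. When the trend with gene length was taken out of every library, a step chosen after seeing the data, the change of Adora2b was -0.50 (adjusted p = 0.036). In the other 20 alternative analyses its adjusted p was above 0.05, up to 0.584.

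P2ry6 was at 37.5, 40.1 and 46.1 FPKM, with a log2 change of -0.20 (95% interval -0.64 to 0.23, limma adjusted p = 0.531), and the change was between -0.37, in TPM, and -0.14, without LPS + G-CDs replicate 1, over the alternatives. P2rx7 was at 3.58, 2.37 and 2.31 FPKM, where replicate 1 exceeded every LPS library and the other two lay below them all. Its log2 change was -0.21 (95% interval -0.58 to 0.16, limma adjusted p = 0.457). It was -0.11 with the length trend removed, -0.36, -0.14 and -0.13 without LPS + G-CDs replicates 1, 2 and 3, and -0.40 in TPM. P2rx4 was at 2.11, 2.03 and 2.33 FPKM, a log2 change of 0.05 (95% interval -0.20 to 0.30, limma adjusted p = 0.791), and over the alternatives it lay on both sides of 0, from -0.0808 in TPM to 0.21 with the length trend removed.

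Adora2a had 4, 6 and 6 reads with LPS + G-CDs, each below the lowest LPS library at 12 reads. The mean was 0.116 FPKM against 0.534 FPKM with LPS, 4.61-fold lower as a ratio of means. With no filter the log2 change was -0.45 (unadjusted p = 0.00271, limma adjusted p = 0.241), so this difference did not pass the threshold. On 16 and 69 reads in all, the size of the ratio is imprecise. Entpd1 had 13, 4 and 10 reads with LPS + G-CDs and overlapped the LPS libraries.

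**Figure D3:**
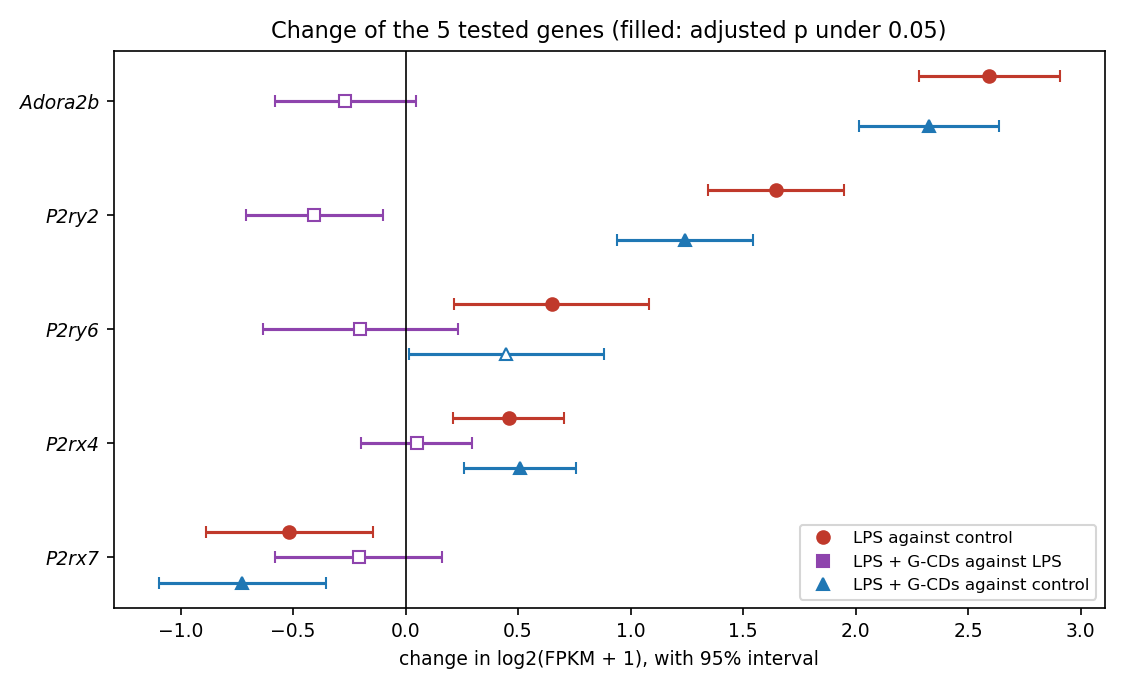
Change in log2(FPKM + 1) of the 5 tested genes (horizontal axis) with 95% intervals from limma, in the 3 comparisons. Filled symbols have an adjusted p under 0.05. All 5 are filled for LPS against control, 0 for LPS + G-CDs against LPS, and 4 for LPS + G-CDs against control.

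Set against control, LPS + G-CDs cells showed 3 of the 5 genes higher and 1 lower at an adjusted p under 0.05 (12.8% and 12.4% of the genes tested, 25.3% in all). This comparison shares its libraries with the other two, so its values stand beside theirs and do not add to them. The log2 change was 2.33 for Adora2b (standard error 0.14, limma adjusted p = 4.03e-06), 1.24 for P2ry2 (0.13, adjusted p = 0.000181) and 0.51 for P2rx4 (0.11, adjusted p = 0.00875). The call of P2rx4 was lost in TPM (0.32, adjusted p = 0.176) and in a fit of the 6 libraries compared (adjusted p = 0.0526). P2rx7 fell by 0.72 on the log2 scale (standard error 0.16, limma adjusted p = 0.0114), though without LPS + G-CDs replicate 2 the adjusted p was 0.0543, and in TPM the change was -1.24. P2ry6 had a log2 change of 0.45 (95% interval 0.01 to 0.88, limma adjusted p = 0.127), which was 0.22 without control replicate 1, 0.24 with quantile scaling and 0.022 in TPM. In all 5 the libraries of the groups did not overlap (34.3% of the genes tested), with 4 higher (17.7%) and 1 lower (16.6%). An unadjusted p under 0.05 was reached by 5 (36.3%), and p under 0.01 with over 1.5-fold on the FPKM + 1 scale by 3 (18.9%), which were Adora2b, P2ry2 and P2rx7. P2rx4 was at 1.42-fold on that scale and at 1.77 as a ratio of mean FPKM.

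Over the 9 libraries the genes with the most similar profile to each receptor were listed by Pearson's r of log2(FPKM + 1), as a description in which the 3 groups supply most of the variation. For Adora2b they were Ifnb1, Cd40 and Tnip1 (r = 0.998 for each), and 524 genes had r above 0.95. P2ry2 was closest to Plagl2 and Ets2 (0.996 each) and Rhbdf2 (0.994). P2rx4 was closest to Apol9a (0.993), Stx6 and Oas1a (0.992 each). P2rx7 was closest to Gm44949 (0.990), Cux1 (0.986) and Nav1 (0.985). P2ry6 had the fewest close genes, 17 with r above 0.95, led by Sf3b4 (0.976), Rrp8 (0.974) and Cdc42 (0.967). Among the receptors themselves r was 0.955 between Adora2b and P2ry2, 0.753 between the chromosome 7 neighbors P2ry2 and P2ry6, and -0.890 between the chromosome 5 neighbors P2rx4 and P2rx7.

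The longest transcripts of these genes shared little sequence with other genes. Counting stretches of 50 bases in them, 2.16% in P2rx4, 1.43% in P2rx7 and 0.01% in P2ry14 also occur in transcripts of other genes, and 0.0% in the other 5. Bases found only in shorter transcripts were counted for FPKM but were not searched. Exons of P2rx7 overlap those of Mir8115 on the same strand over 119 bases, and no other exon overlap was found.

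The 12 other receptors for adenosine and nucleotides were low in these cells. None passed the filter, and Adora1, P2ry1, P2ry4, P2ry10, P2ry12 and P2ry13 had 0 reads in all 9 libraries. Adora3, an inhibitory adenosine receptor gene, was the highest of them with LPS, at 0.247 ± 0.133 FPKM in control, 0.895 ± 0.106 in LPS and 0.850 ± 0.125 FPKM with LPS + G-CDs (n = 3, SD). P2rx5 was at 0.733 ± 0.321, 0.605 ± 0.109 and 0.295 ± 0.126 across those groups (n = 3, SD).

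Around the receptors, 97 genes were listed that make, release, degrade or transport nucleotides and adenosine, act in cAMP signaling or are the other receptors, and 53 were tested. Between LPS and control cells 7 rose and 15 fell, 41.5% of them against 31.3% of all genes tested, with a median change of -0.23. Among those that fell, Ak1 and Adcy6 reached 1 FPKM only in control libraries. Pde4b, which rose, reached it only in libraries given LPS. Such genes entered the test only through the groups where they are high. In the list of ectonucleotidases and related enzymes 1 of 7 tested genes rose and 2 fell. Some of these enzymes, those of Entpd5 and Entpd6 among them, are not surface enzymes. Enpp4, a pyrophosphatase of the cell surface, was at 2.15 ± 0.225 FPKM in control and 13.7 ± 0.585 with LPS (SD, n = 3), a log2 change of 2.22 (standard error 0.14, limma adjusted p = 6.32e-06). Entpd6 and Entpd5 fell by 0.95 and 0.77 on the log2 scale (adjusted p = 0.000579 and 0.0137), and the call of Entpd5 was lost without LPS replicate 1 or 3. Nt5e, the gene of CD73, had 9 reads in all 9 libraries together.

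In adenosine and purine metabolism 1 of 14 tested genes rose and 3 fell, where 15.8% and 15.6% of all tested genes did. The falls include Ak1, which entered the test only through its control libraries. Pnp, purine nucleoside phosphorylase, rose with a log2 change of 1.11 (limma adjusted p = 0.0139), a call lost without LPS replicate 3, whereas Ada, adenosine deaminase, fell from 8.35 ± 1.54 to 3.78 ± 0.398 FPKM (SD, n = 3; log2 change -0.96, limma adjusted p = 0.0059). Nt5c, a cytosolic nucleotidase, fell by 0.84 (adjusted p = 0.0355), a call kept in 14 of 21 alternative analyses and lost without control replicate 1 or 3, any 1 of the LPS libraries or LPS + G-CDs replicate 2. Of 3 nucleoside transporters tested, Slc29a2 fell by 0.66 (adjusted p = 0.0188), a call lost without control replicate 2 or 3 or LPS replicate 1 or 2, and the other two did not pass. Among 7 tested genes of nucleotide release, Lrrc8d, a subunit of volume-regulated anion channels, rose by 1.21 on the log2 scale (adjusted p = 0.000328). Panx1, the gene of the ATP-releasing channel pannexin-1, fell from 4.35 ± 0.464 to 1.60 ± 0.114 FPKM (SD, n = 3; log2 change -1.04, limma adjusted p = 0.000297), and Lrrc8c fell by 0.65 (adjusted p = 0.0138), though not without LPS replicate 1. A further gene of this list, the vesicular nucleotide transporter Slc17a9, fell by 0.54 (adjusted p = 0.0352), a call lost without control replicate 2 or 3, LPS replicate 1 or 2, or LPS + G-CDs replicate 2.

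Of 8 tested genes of UDP-sugar metabolism, 1 rose and 2 fell, beside 15.8% and 15.6% of all tested genes. Ugcg, glucosylceramide synthase, which uses UDP-glucose, rose by 1.22 (limma adjusted p = 0.000287), while Ugdh and Ugp2 fell by 0.59 and 0.45 on the log2 scale (adjusted p = 0.00217 and 0.0177), the latter call being lost without LPS replicate 1 or 3. In cAMP signaling 3 of 14 tested genes rose and 4 fell. The falls include Adcy6, which entered the test only through its control libraries, and the rises include Pde4b, which entered only through the groups given LPS. Pde4b, a phosphodiesterase that degrades cAMP, was at 0.536 ± 0.0839 FPKM in control and 8.56 ± 0.294 with LPS (SD, n = 3), a log2 change of 2.64 (standard error 0.16, limma adjusted p = 4.61e-06). The adenylate cyclase gene Adcy2 rose by 1.06 (adjusted p = 0.000113). Prkar2b, a regulatory subunit of protein kinase A, fell from 2.41 ± 0.159 to 0.584 ± 0.0953 FPKM (SD, n = 3; log2 change -1.11, limma adjusted p = 0.000135). Over the alternative analyses the change of Pde4b ranged from 2.46 to 4.005 and that of Prkar2b from -2.03 to -1.05. Of all tested genes 31.3% were called in either direction.

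**Figure D4:**
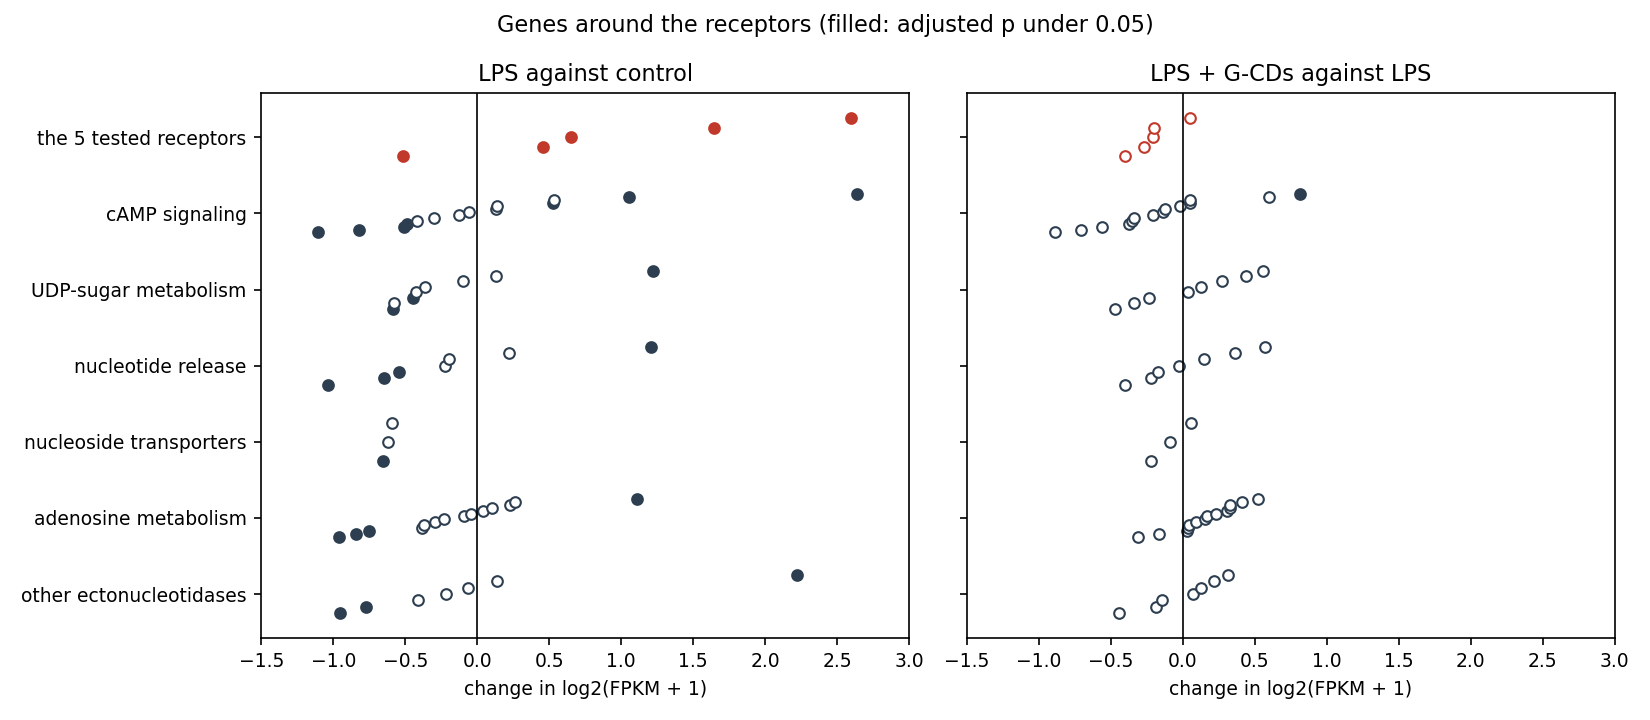
Change in log2(FPKM + 1) (horizontal axis) of each tested gene of the lists around the receptors and of the 5 tested receptors, for LPS against control (left) and LPS + G-CDs against LPS (right). Filled dots have an adjusted p under 0.05. On the left 7 listed genes are filled above 0 and 15 below, and on the right Prkar2b alone is filled.

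With G-CDs on top of LPS, 1 of the 53 genes passed the threshold (1.89%, against 0.492% of all genes tested) and 0 fell, and the median change was 0.04. That gene was Prkar2b, at 1.78 ± 0.141 FPKM against 0.584 ± 0.0953 with LPS (SD, n = 3), a log2 change of 0.81 (standard error 0.12, limma adjusted p = 0.0249). The LPS + G-CDs level lay between those of LPS and control. The call was kept in 11 of 21 alternative analyses, over which the change ranged from 0.76 to 1.60. It was lost under the replicate block, with no filter, in TPM, in a fit of the 6 libraries compared, and without any 1 of the LPS libraries, control replicate 2, or LPS + G-CDs replicate 2 or 3.

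Among 6 tested genes of the inflammasome linked to the P2rx7 channel, 3 rose and 1 fell with LPS (31.3% of all tested genes did either), while P2rx7 itself fell. Il1b was at 418 to 432 FPKM in LPS libraries and at most 0.0308 FPKM in control libraries, 2 of which had 0 reads (limma adjusted p = 2.14e-09), so the size of its change depends on the pseudocount. Nlrp3 and Il18 rose with log2 changes of 3.57 and 1.76 (adjusted p = 9.49e-06 and 0.0012), and Nek7 fell by 0.75 (adjusted p = 0.00303). Pycard, which encodes the adaptor ASC, was at most 0.295 FPKM in any library, and 0 of the 6 tested genes passed between LPS + G-CDs and LPS, where 0.492% of all genes did.

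**Figure D5:**
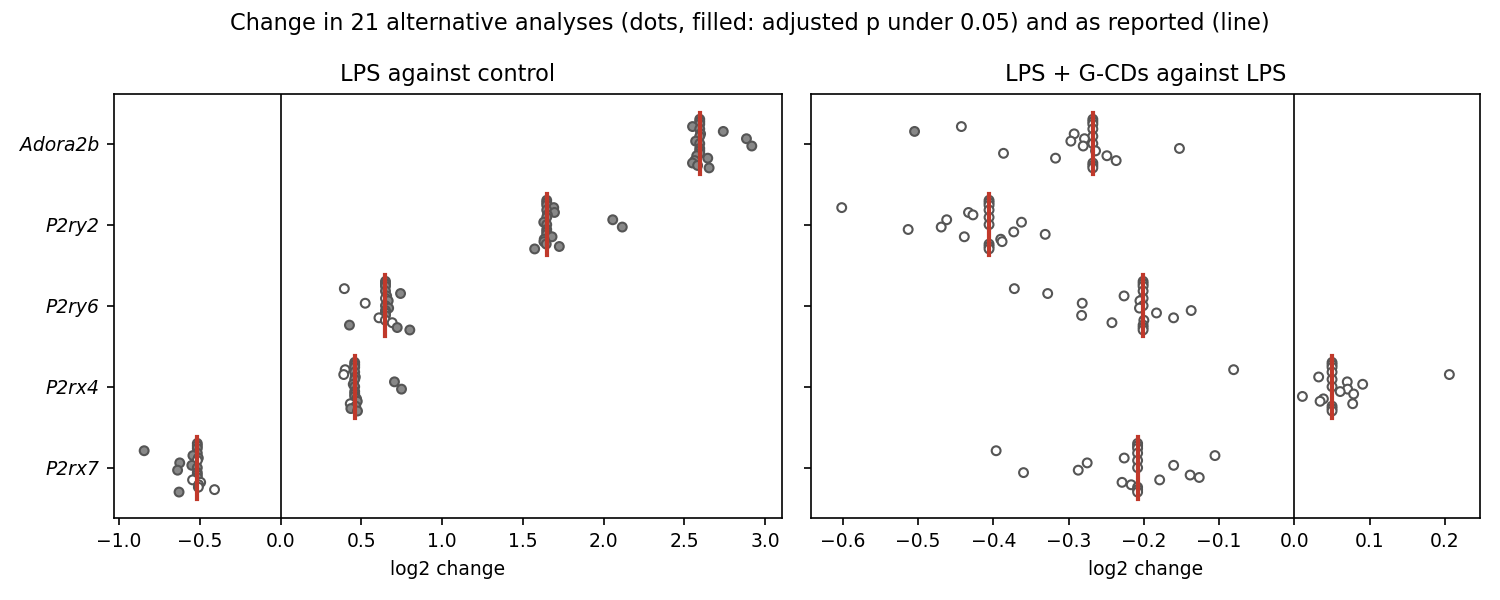
Log2 change (horizontal axes) of the 5 tested genes in 21 alternative analyses (dots, filled where the adjusted p is under 0.05) and as reported (red line). For LPS against control Adora2b stays between 2.55 and 2.92 and P2rx7 between -0.85 and -0.41, and for LPS + G-CDs against LPS the dots of P2rx4 lie on both sides of 0.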

How the data were processed

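The authors isolated poly(A) mRNA, and sequenced it, and the values they deposited are FPKM. The builds GRCm38 and mm10 are named in the submitters' processing notes. The aligner, the counting method and the test are not given in the sources used here. GENCODE M21 gives the same gene coordinates for 53499 of 54409 genes found in both. Library columns were matched by name, and 0 belonged to other samples.

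FPKM multiplied by gene length gave whole reads, to within 0.05 reads, for 100.0% of values. The library size behind the FPKM was 0.88 to 1.14 times the reads on genes; a scaling between libraries is therefore part of the values. The 11585 genes that reached 1 FPKM in 3 libraries or more were fitted as log2(FPKM + 1) with limma 3.58.1 in R 4.3.3, with a mean-variance trend and 1 model of all 9 libraries. This scale understates changes of low genes. Tests were two-sided, and an adjusted p under 0.05 was called. Python 3.11.15 and pandas 2.3.3 prepared the tables. On simulated libraries with 200 changed genes the test called 76.5%, 72.0% and 74.0% of them for LPS against control, LPS + G-CDs against LPS and LPS + G-CDs against control, and 8.4%, 4.6% and 3.3% of its calls were unchanged genes. The simulation took the LPS means for every group, used a single spread for all genes and had no length trend. Genes of low level were left unchanged. These shares therefore do not give the power of the test in the real libraries.

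The members, lists and tests were chosen with earlier results of these data known. The 8 genes were all named. From each list up to 3 called genes with the largest change were named, and for each tested receptor the 3 genes of highest correlation. Slc17a9, Ak1, Adcy6, Nek7, Nt5e, Pycard, Adora3, P2rx5 and the single macrophage markers were named after their values were seen.

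Same-numbered LPS and control libraries deviated from their group means with correlations of 0.103, 0.137 and 0.113, all above the chosen limit of 0.1. Differently numbered ones were at -0.127 to -0.014. By this limit the numbers pair them, but the correlations are weak. The main fit did not use the numbers, and a replicate block was run as an alternative. The labels do not say what a number stands for.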

Additional observations from a re-analysis of the deposited data

How the results depend on the processing

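Alternatives were a pseudocount of 0.1, no filter, 1 FPKM in 6 libraries, TPM, quantile or median-of-ratios scaling, a fit of the 6 libraries compared, no trend, voom on recovered reads, a replicate block, and leaving out single libraries, with a length-trend removal and a filter at 0.1 FPKM added after seeing the data. Between LPS and control, 4 receptors rose and 1 fell. TPM, which brought the median change of all genes to -0.23 and the share of rises among calls from 50.3% to 24.7%, left 2 rising, Adora2b and P2ry2, and lost P2rx4 and P2ry6 (0.40 and 0.39), and the 0.1 FPKM filter left 0 falling. With libraries left out 2 to 4 rose and 0 to 1 fell. With no filter the counts stayed at 4 and 1 but for other genes, since Adora2a and Entpd1 entered and P2ry6 and P2rx7 were lost. Adora2a entered only through the groups given LPS. Quantile scaling lost P2ry6 and length-trend removal lost P2rx4. For P2rx7 the change was -0.85 in TPM. The replicate block left 4 and 1.

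Between LPS + G-CDs and LPS, 0 receptors passed with any library left out, and 1 fell (Adora2b) with the length trend removed. P2rx4 turned to -0.0808 in TPM, where the median of all genes was -0.14. The 57 genes called in all became 25 with the pseudocount or the 6 libraries, 27 in TPM, 97 with the length trend removed and 11 to 256 with a library left out. The replicate block gave 28 higher and 25 lower. Same-numbered libraries correlated at 0.095, 0.080 and 0.143 there and at 0.280, 0.057 and 0.653 for LPS + G-CDs against control, not all above 0.1. In the latter comparison LPS + G-CDs replicate 1 and control replicate 2, of different numbers, correlated at 0.504.

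Between LPS + G-CDs and control, 0 to 1 receptors fell and 3 rose with libraries left out, and the 2927 genes called became 1789 with the 6 libraries and 1914 to 3245 with a library left out. TPM and the 6 libraries lost P2rx4 (adjusted p = 0.176 and 0.0526). In TPM the median change of all genes was -0.376, and the share of rises among calls went from 50.8% to 19.1%. The causes were not tested. The block changed no call of a receptor.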
